A study of Mus musculus with 107 samples.

Results

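Hedgehog signalling was followed through 7 genes, Shh, Ptch1, Hhip, Smo, Gli1, Gli2 and Gli3, in RNA of 24 genetically targeted cell populations of mouse brain and spinal cord and in the remaining RNA of 6 tissues. The 7 genes were taken by symbol from the 18194 genes for which the array has a probe set (a set of short probes for 1 transcript) with exactly 1 gene symbol. They have 18 such probe sets among the 45101 on the array. Each gene is given by the probe set with the highest mean over all arrays.

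Shh encodes Sonic hedgehog, a secreted protein that acts on cells other than those that make it. Without the ligand its receptor Ptch1 keeps the membrane protein Smo silent; bound ligand lifts that block, and Smo then acts through the zinc finger transcription factors Gli2 and Gli3 on target genes, among which are Gli1, Ptch1 itself and Hhip, a membrane protein that binds and withholds the ligand. In the cerebellum Purkinje neurons are known as the source of the ligand, which drives the division of granule neuron precursors in the young animal and acts on Bergmann glia, the radial astroglia around the Purkinje cell bodies, in the adult.

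The populations were isolated by translating ribosome affinity purification (TRAP): mice carry a bacterial artificial chromosome (BAC) transgene that tags ribosomes in the cells of 1 driver gene, and RNA on the tagged ribosomes is purified from a tissue extract. The RNA left behind, called unbound RNA, served as the control of each tissue, and all groups, controls included, came from BAC transgenic mice with no treatment named. In the cerebellum the drivers and lines were pcp2 for Purkinje neurons (lines DR166 and DR168, 3 arrays each), neurod1 for granule neurons (JP241), grm2 for Golgi neurons (JP77), grp for unipolar brush neurons (JP25), lypd6 for stellate and basket neurons (JP48), septin4 for Bergmann glia (DS152), aldh1l1 for astrocytes (JD130), cmtm5 for mature oligodendrocytes (JD307) and olig2 for mixed oligodendroglia (JD97), with 3 arrays for each population other than the Purkinje neurons. The 7 unbound cerebellum arrays came from the lines DR168, DS152 and JD307. In the cortex the populations were astrocytes (aldh1l1, lines JD130 and JD133, 4 arrays), mature oligodendrocytes (cmtm5), mixed oligodendroglia (olig2), Cck+ neurons (cck, GM391), Cort+ neurons (cort, GM130), Pnoc+ neurons (pnoc, GM64) and the neurons of layer 5a (line TS88), layer 5b (glt25d2, DU9) and layer 6 (ntsr1, TS16), against 9 unbound arrays. The striatum gave Drd1+ (drd1, CP73) and Drd2+ (drd2, CP101) medium spiny neurons and cholinergic neurons (chat, DW167), against 6 unbound arrays, and the same chat line gave motor neurons of the brainstem and cholinergic neurons of the basal forebrain and spinal cord, each against 3 unbound arrays. Apart from the Purkinje neurons and cortical astrocytes, every population came from a single line. Strain, age, sex and the number of animals pooled for an array are not given in the sources used here.

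Values are log2 GCRMA intensities after 1 scaling shift per group. A mean of 6, an intensity of 64, in at least 1 group compared was set as the minimum for testing a gene. A gene was called where 2 groups differed by at least 2-fold with an adjusted p under 0.05 in limma (Benjamini-Hochberg, over all genes tested). Comparisons between populations also required the side with the higher level to exceed its own tissue's unbound RNA, in at least 1 population where several were averaged. Genes that exceeded it on neither side were not tested there, even above 6. The shares given for these comparisons cover the genes tested alone. A fold is given as "at least" where a group lay under 6 and was set to 6. GCRMA puts weak signals at a lowest value, which held 29.5% to 45.7% of the values of an array, and in the groups of 3 arrays between 4.60% and 18.4% of the genes with a mean of at least 6 had the same value on every array, which narrows their spread and lowers the p-values. The labelled identities were looked at through marker genes. Of the lists used for cerebellar populations, all but the mature oligodendrocyte list hold the driver gene of the labelled line. These are Pcp2, Neurod1, Grm2, Grp, Lypd6, Septin4 and Aldh1l1. Their rise is in part fixed by how the cells were picked, so the means are only in part a check. The mean log2 level of 4 Purkinje markers was 15.90 in Purkinje TRAP RNA and 14.72 in unbound cerebellum. That of 5 Bergmann glia markers was 14.37 in Bergmann TRAP RNA and 11.05 in unbound cerebellum. The markers of the labelled type were also above unbound cerebellum in the means of Golgi neurons (11.49 against 8.56), unipolar brush neurons (14.22 against 7.35), stellate and basket neurons (12.88 against 10.63), astrocytes (13.49 against 11.53), and mature and mixed oligodendroglia (13.96 and 13.77 against 10.77 for the mature markers). The granule neurons were the exception: their 5 markers had a mean of 13.87 in granule TRAP RNA and 14.05 in unbound cerebellum, with summed intensities of 136435 to 145858 and 115233 to 183080. The cerebellar astrocyte arrays held 5 of 5 Bergmann glia markers, with a mean of 13.66 and summed intensities of 113823 to 120776, above unbound cerebellum and below Bergmann glia. The unipolar brush TRAP arrays held the Bergmann glia markers too, 5 of 5 at a mean of at least 6, with summed intensities of 80040 to 90532 against 28269 to 56714 in unbound cerebellum and 145774 to 175643 in Bergmann glia; values of the unipolar brush group are given with this in view. The layer 5a arrays held the markers of several other cell types above unbound cortex (6 of 6 microglia and macrophage markers at a mean of at least 6, with summed intensities of 11265 to 23249 against 609.4 to 3756; 7 of 7 astrocyte markers, 74128 to 88215 against 17650 to 34656). The part of these cells in the results was not tested.

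The RefSeq promoter table of build GRCm38.p6 matched 5 of the 7 genes. The 250 bases before the start site are printed for Ptch1, Gli2 and Gli3, whose RNA was high together in astroglia (below), at chr13:63565736-63565985 on the minus strand, chr1:119053620-119053869 on the minus strand and chr13:15463473-15463722 on the plus strand. They run 5′ to 3′ in lower case, with CCACCC, the core of the sequence that Gli proteins bind, or its reverse complement GGGTGG in capitals.
Ptch1: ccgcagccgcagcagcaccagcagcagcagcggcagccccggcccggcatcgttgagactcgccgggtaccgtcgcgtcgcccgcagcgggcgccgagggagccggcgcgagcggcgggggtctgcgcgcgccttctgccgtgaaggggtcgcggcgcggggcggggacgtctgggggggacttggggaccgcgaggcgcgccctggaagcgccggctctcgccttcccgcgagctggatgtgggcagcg
Gli2: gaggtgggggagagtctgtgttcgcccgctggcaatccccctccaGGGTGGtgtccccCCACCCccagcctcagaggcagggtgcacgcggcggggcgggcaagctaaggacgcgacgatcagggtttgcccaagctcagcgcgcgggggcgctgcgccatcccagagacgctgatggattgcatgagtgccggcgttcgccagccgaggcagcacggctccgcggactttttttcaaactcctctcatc
Gli3: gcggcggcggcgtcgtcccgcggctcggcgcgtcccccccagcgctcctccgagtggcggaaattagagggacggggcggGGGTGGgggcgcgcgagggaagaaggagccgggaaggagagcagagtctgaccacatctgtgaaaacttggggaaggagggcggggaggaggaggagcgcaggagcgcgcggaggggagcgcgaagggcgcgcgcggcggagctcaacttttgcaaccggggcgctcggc
The longer Gli sequence GACCACCCA, searched on both strands, was in none of the 5 members' windows and in 0.225% of 32851 RefSeq promoter windows of the same 250 bases. The core CCACCC, which the longer sequence contains, was in the windows of 4 of the 5 members, all except Ptch1, and in 28.1% of all windows. In Gli2 it started 205 and 192 bases before the start site and in Gli3 170 bases before it.

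Shh, the ligand, was high in 3 neuron populations. The 6 Purkinje arrays ran from 11.08 through a median of 11.31 to 11.71, the brainstem motor neurons gave 11.94, 11.33 and 11.21, and the spinal cord cholinergic neurons gave 10.68, 11.21 and 10.50. These 3 groups overlapped with each other, and all their arrays lay above those of the Cort+ neurons, next in order at 9.68, 9.57 and 9.64. Unbound RNA of the 6 tissues had means of 8.15 (cortex) to 9.08 (basal forebrain), so that the signal of this probe set was not at the lowest value in any tissue. The other Shh probe set was at its lowest value on 81 arrays. Its highest group mean was 3.53, so it gave no Shh signal in these 3 populations or any other group. The Shh values therefore rest on 1 probe set.

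**Figure D1:**
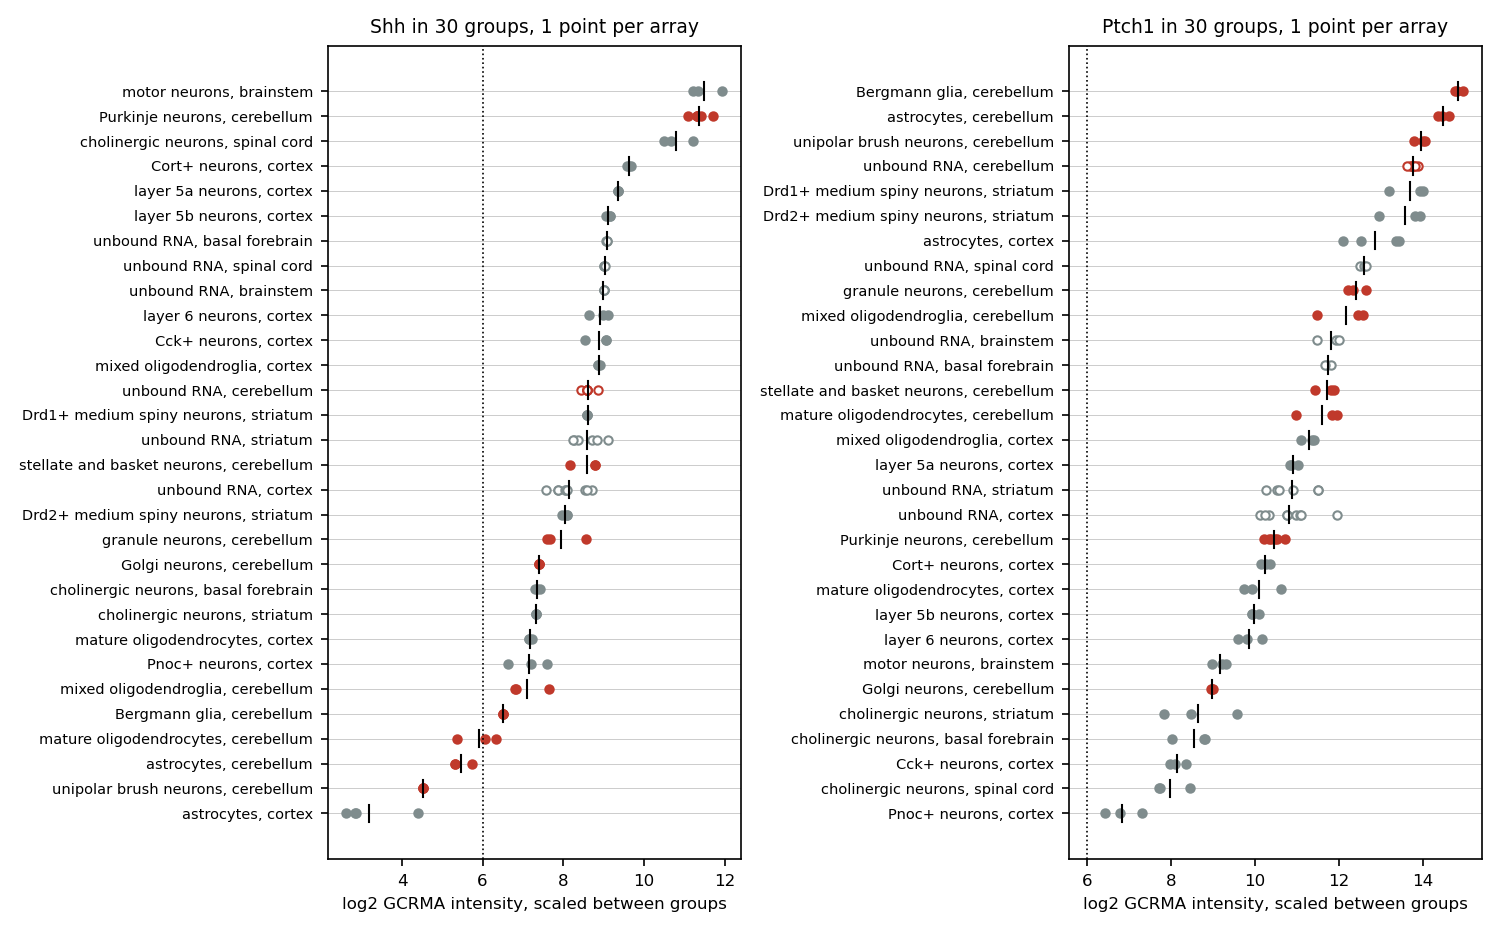
Shh (left) and Ptch1 (right) in 30 groups, ordered by group mean. The horizontal axis is the scaled log2 GCRMA intensity, each point is 1 array, open points are unbound RNA, red marks the cerebellum and grey the other tissues, black bars are group means and the dotted line is the minimum of 6. Shh is highest in brainstem motor neurons, Purkinje neurons and spinal cord cholinergic neurons, and Ptch1 in Bergmann glia and cerebellar astrocytes.

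Against the unbound RNA of their tissue, Shh was 6.74-fold higher in Purkinje neurons (log2 difference 2.75, SE 0.17, adjusted p = 1.7e-26), 5.65-fold higher in brainstem motor neurons (2.50, SE 0.25, adjusted p = 1.1e-14) and 3.42-fold higher in spinal cord cholinergic neurons (1.78, SE 0.25, adjusted p = 1.7e-09). In each of the 3 the arrays of the population lay above all unbound arrays. It was also called higher in Cort+ neurons (2.79-fold) and in layer 5a neurons (2.32-fold, lost with no scaling at a log2 difference of 0.70 and at -0.10 after quantile normalization). Layer 5b neurons were at 1.96-fold, under the 2-fold line, with a log2 difference of 0.97, and were called without layer 5b replicate 1 (1.02) or without any 1 of 3 unbound cortex arrays (1.09 to 1.12). The 2 other cholinergic populations of the same chat line went the other way: the basal forebrain arrays at 7.36, 7.29 and 7.42 lay below all 3 unbound arrays (3.29-fold lower; after quantile normalization a log2 difference of -0.84, not called), and the striatal arrays, all at 7.33, lay below all 6 unbound arrays (2.40-fold lower; -0.91 and not called after quantile normalization). Populations of 1 tissue share its unbound arrays, and in whole tissue RNA fewer cells of a type and less RNA per cell cannot be told apart.

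Among the cerebellar neurons, Shh separated the Purkinje cells from the rest. Stellate and basket neurons gave 8.78, 8.17 and 8.78, granule neurons, whose markers were not above unbound cerebellum, 8.57, 7.68 and 7.60, Golgi neurons 7.40 on all 3 arrays, and unipolar brush neurons 4.52 on all 3. No array of these 4 populations reached the lowest Purkinje array. The Purkinje mean (11.36 ± 0.20, SD, n = 6) was at least 14.7-fold above the mean of the 4 populations (adjusted p = 6e-42), and the log2 difference of 4.24 was 4.03 with line DR166 and 4.46 with line DR168 alone. The stellate and basket arrays also carried Purkinje markers, with summed intensities of 35306 to 47297 against 92901 to 169085 in unbound cerebellum. All 4 markers had a mean of at least 6, as they did in every cerebellar TRAP population. Shh in stellate and basket neurons did not differ from unbound cerebellum by the rule (log2 difference -0.03, adjusted p = 0.92). The part of the Purkinje markers was not tested. Shh was called lower than unbound cerebellum in Golgi neurons (2.30-fold; -0.89 with no scaling and 0.94 after quantile normalization, and -0.93 without Golgi replicate 2, each not called as lower) and in unipolar brush neurons (at least 6.08-fold).

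Of the 4 members tested between Purkinje neurons and the other cerebellar neurons, Shh was called higher, where 24.8% of 6647 genes were called higher and 26.4% lower. Ptch1 was 2.49-fold lower in Purkinje neurons than in the other 4 populations (log2 difference -1.32, adjusted p = 2.5e-09). The Purkinje arrays overlapped with theirs: Golgi neurons were below Purkinje neurons and the other 3 above. Ptch1 was tested and called only through the unipolar brush arrays, which carry Bergmann glia markers. They alone of the 4 exceeded unbound cerebellum in it, by a log2 difference of 0.19 that was not called. Gli3 was called lower through the unipolar brush arrays, since the remaining neuron groups had Gli3 means under 4. Smo differed by 1.20 (adjusted p = 0.0012) but Purkinje TRAP RNA did not exceed unbound cerebellum in it, so it was not called.

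In the astroglia Shh was low. Bergmann glia gave 6.50 on all 3 arrays, cerebellar astrocytes 5.74, 5.32 and 5.32, and cortical astrocytes, the lowest of the 30 groups, 2.84, 4.39, 2.85 and 2.62. The Bergmann and cerebellar astrocyte arrays lay below every Purkinje array, with a mean at least 34.4-fold lower (log2 difference -5.37, SE 0.18, adjusted p = 2.5e-45). Against unbound cerebellum Shh was 4.28-fold lower in Bergmann glia and at least 6.08-fold lower in cerebellar astrocytes.

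Ptch1, the receptor, was high in cerebellar astroglia and lower in Purkinje neurons, the reverse of Shh for these groups. Bergmann glia gave 14.97, 14.78 and 14.81, cerebellar astrocytes 14.37, 14.63 and 14.47, and unbound cerebellum ran from 13.63 through a median of 13.75 to 13.89. Bergmann glia and cerebellar astrocytes led the 30 groups and did not overlap with each other or with unbound cerebellum. The Purkinje arrays ran from 10.22 through 10.43 to 10.72. Purkinje neurons lay below all astroglial and unbound arrays, and the 2 astroglial populations together were 18.8-fold above them (log2 difference 4.23, SE 0.22, adjusted p = 1.8e-31).

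Bergmann glia were 2.13-fold above unbound cerebellum in Ptch1 (log2 difference 1.09, SE 0.26, adjusted p = 1.4e-04). Cerebellar astrocytes were 1.66-fold above it, with a log2 difference of 0.73 (adjusted p = 0.0095), and so passed the p but not the 2-fold line; with no scaling between groups the difference was 1.14 and was called. Ptch1 was lower than unbound cerebellum in Golgi neurons, at 8.97, 9.01 and 8.94 (27.7-fold), in Purkinje neurons (9.99-fold), in stellate and basket neurons (4.14-fold) and in mature oligodendrocytes (4.51-fold). Granule neurons, at 12.34, 12.65 and 12.21, were 2.57-fold lower, and mixed oligodendroglia, at 12.59, 12.46 and 11.48, were 3.01-fold lower; with no scaling these differences of -0.92 and -0.72 were not called. Unipolar brush neurons, at 13.80, 14.06 and 14.01, overlapped with unbound cerebellum (log2 difference 0.19, adjusted p = 0.53; with no scaling 1.06, called higher).

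Outside the cerebellum Ptch1 was high in medium spiny neurons and in cortical astrocytes. Drd1+ neurons gave 13.19, 14.01 and 13.93 and Drd2+ neurons 12.95, 13.83 and 13.93, where unbound striatum ran from 10.27 through 10.75 to 11.51. Both populations lay above all unbound striatal arrays, 7.08-fold and 6.44-fold higher by their means (adjusted p = 1.4e-15 and 1.4e-14). These log2 differences of 2.82 and 2.69 were 1.56 and 1.81 with no scaling, smaller but still called. Cortical astrocytes gave 13.44, 12.11, 13.37 and 12.53, all above the highest unbound cortex array at 11.97, and were 4.12-fold higher (adjusted p = 2.4e-13). The cholinergic neurons of the striatum, at 9.58, 8.48 and 7.83, were 4.76-fold below unbound striatum. Unbound cerebellum itself was 7.71-fold above unbound cortex in Ptch1 (log2 difference 2.95, adjusted p = 4.3e-25), with no overlap between 7 and 9 arrays, where the median of all genes tested differed by 0.93. Of the 5 members tested in that tissue comparison, Ptch1 and Smo were called higher in cerebellum and none lower, where 47.1% of 10356 genes were called higher and 8.23% lower. Without scaling 24.6% of genes were higher and 13.1% lower there, and after quantile normalization 19.9% and 16.7%, when Gli3 was called lower in cerebellum (-1.21).

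Hhip, the ligand-binding antagonist, was found in glia of both kinds by the first of its 4 probe sets. In the cerebellum mixed oligodendroglia gave 7.90, 8.20 and 7.63, astrocytes 7.74, 7.79 and 7.79, Bergmann glia 7.13, 6.95 and 6.95, and mature oligodendrocytes 7.22, 6.65 and 6.95. All these arrays lay above unbound cerebellum, which ran from 5.14 through 5.59 to 5.86. The arrays of Purkinje, granule and Golgi neurons were all at their lowest value. Hhip was called higher than unbound cerebellum in the 4 glial populations, by at least 3.75-fold in mixed oligodendroglia, 3.42-fold in astrocytes, 2.02-fold in Bergmann glia and 1.92-fold in mature oligodendrocytes, where the last stands for a log2 difference of 1.38 (adjusted p = 2e-04) against a group under the minimum.

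Cortical astrocytes did not share this level. Their Hhip arrays gave 4.12, 3.27, 4.16 and 3.43, at least 3.42-fold below cerebellar astrocytes (adjusted p = 6.3e-16), and line JD130, used in both tissues, gave a log2 difference of -4.08 alone. Cortical mature oligodendrocytes, at 7.69, 7.21 and 8.42, and cortical mixed oligodendroglia, at 7.63, 7.78 and 7.60, were both called higher than unbound cortex (at least 3.42-fold and 3.18-fold). The 9 unbound cortex arrays spread from 4.01 to 7.30, and the mature oligodendrocytes differed from the 1 unbound array of their own line by 0.48, which was not called. Layer 5a neurons were also called higher, at least 1.67-fold. The highest Hhip group was unbound spinal cord, at 8.57, 8.10 and 9.24, while the spinal cord cholinergic neurons were at the lowest value. The second Hhip probe set was also highest in unbound spinal cord (mean 7.82) and next in cerebellar mixed oligodendroglia (6.04). No other glial population reached 6 by it. The Hhip calls of the other glia, astroglia included, therefore rest on the first probe set. By the first, mixed oligodendroglia of the cerebellum were 1.95-fold above mature oligodendrocytes (log2 difference 0.97, adjusted p = 0.03), short of a call; Hhip was the 1 member tested there, where 44.4% of 4273 genes were called higher and 7.56% lower. That difference was called with no scaling (1.55, with 64.1% of genes higher and 3.28% lower) and by the second probe set (1.97). It was also called without either mature replicate 1 (1.27) or 2 (1.13) or mixed replicate 1 (1.08). Ptch1 and Shh reached 6 in this comparison too, but exceeded unbound cerebellum in neither population and so were not tested. The mature oligodendrocyte arrays of the cerebellum carried 4 of 4 Purkinje markers, as every cerebellar TRAP population did. Their summed intensities were 30272 to 64484, against 92901 to 169085 in unbound cerebellum.

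Smo, which passes the signal on from Ptch1, was the member whose probe sets disagreed. By the first probe set the highest groups were Cck+ neurons (10.48, 10.56 and 11.45) and Cort+ neurons (10.70, 10.41 and 10.69), called 27.8-fold and 23.8-fold above unbound cortex. The second probe set gave 1.82 and 2.39 in these 2 groups, at or near the lowest value. The 9 unbound cortex arrays also spread from 4.47 to 10.08 by the first probe set, with the highest the unbound array of the Cck+ line, from which Cck+ TRAP RNA differed by 0.75 (adjusted p = 0.28). The Smo level of these 2 cortical populations is therefore given as unsettled between probe sets.

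Astroglia were high by both Smo probe sets. Bergmann glia had means of 9.22 and 10.89, cerebellar astrocytes 8.68 and 10.53, and cortical astrocytes 9.24 and 10.27. By the second probe set these were the 3 highest of the 30 groups. Against unbound tissue RNA the first probe set gave log2 differences of 1.26 in Bergmann glia (2.40-fold, adjusted p = 0.013; 1.07 with an adjusted p of 0.079 against the unbound arrays of their own line), 0.72 in cerebellar astrocytes (adjusted p = 0.15) and 3.21 in cortical astrocytes (9.26-fold, adjusted p = 3.4e-11, with overlapping arrays). The second probe set gave 2.64, 2.28 and 5.35, and all 3 were called. For cerebellar astrocytes the first probe set also gave a call with no scaling (1.13) and after quantile normalization (1.94).

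**Figure D2:**
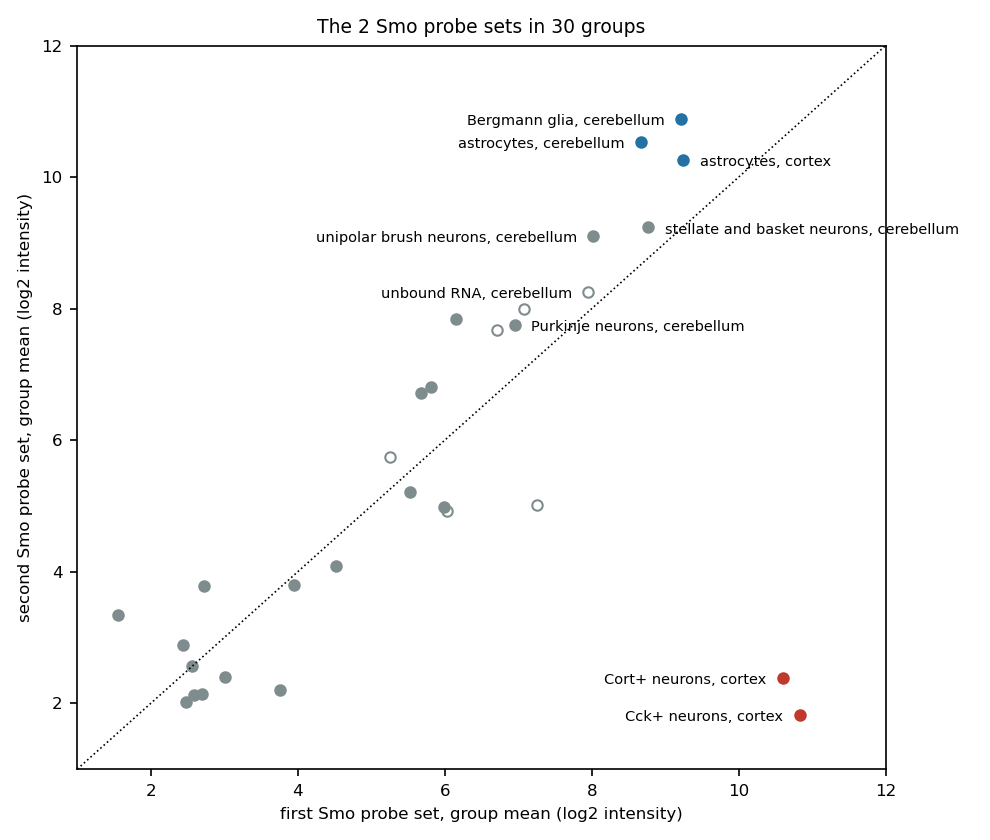
Group means of the 2 Smo probe sets in 30 groups. Both axes are scaled log2 GCRMA intensities, each point is 1 group, open points are unbound RNA, blue marks astroglia, red the Cck+ and Cort+ neurons, and the dotted line is equality. Astroglia are high on both axes, while Cck+ and Cort+ neurons are high on the first only.

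In the cerebellar neurons Smo was uneven. Stellate and basket neurons gave 8.82, 8.70 and 8.79, Purkinje neurons ran from 6.54 through 6.77 to 8.05, Golgi neurons gave 4.21, 2.84 and 4.21, and granule neurons 2.95, 2.24 and 2.24. Granule and Golgi neurons lay below all unbound cerebellum arrays (at least 3.88-fold lower each), also by the second probe set. Purkinje neurons overlapped with unbound cerebellum; their 2.01-fold lower mean (adjusted p = 0.013) was a call that did not hold with no scaling (-0.63), after quantile normalization (0.51), by the second probe set (-0.50), or without any 1 of Purkinje replicates 1, 2, 3 and 6 (-0.85, -0.97, -0.84 and -0.99) or of 3 unbound arrays (-0.90 to -0.97).

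**Figure D3:**
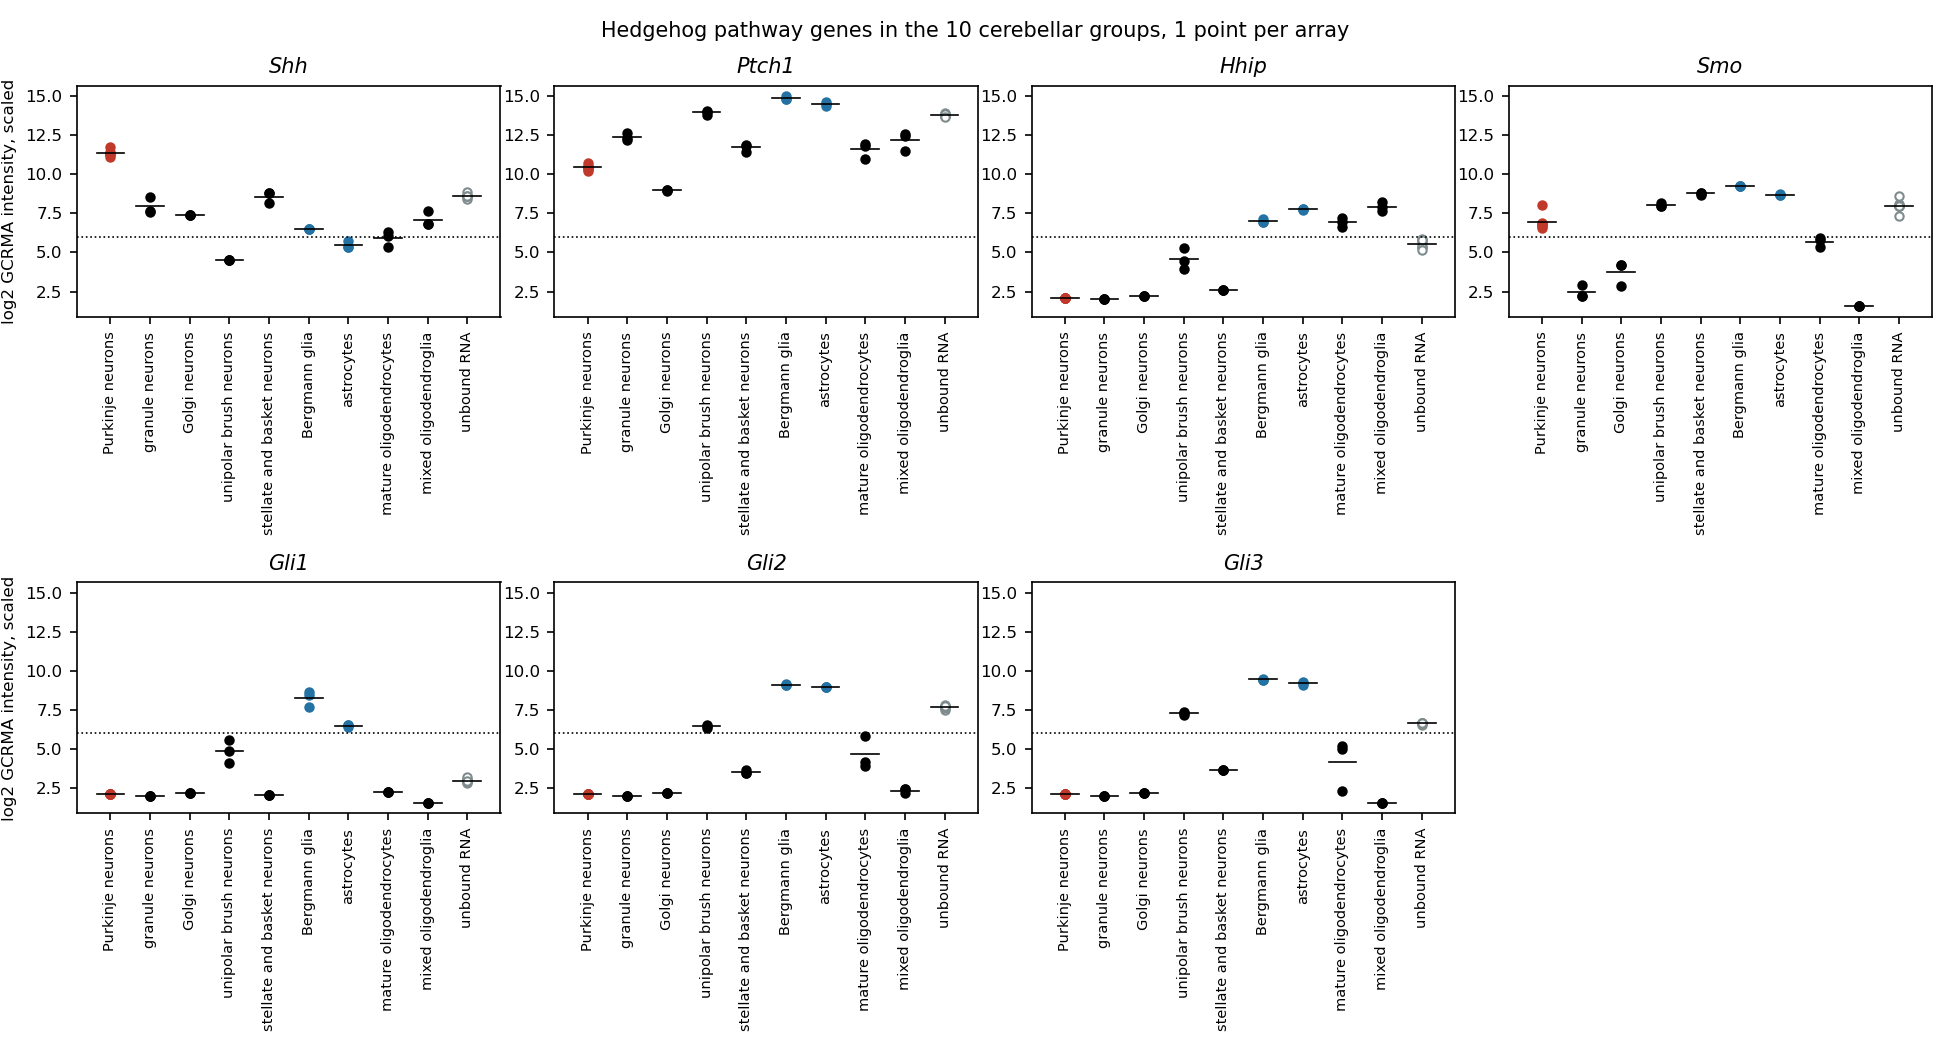
The 7 members in the 9 TRAP populations and the unbound RNA of the cerebellum. The vertical axes are scaled log2 GCRMA intensities, each point is 1 array, bars are group means and the dotted line is the minimum of 6; red marks Purkinje neurons, blue Bergmann glia and astrocytes, black the other populations and open grey points unbound RNA. Shh is highest in Purkinje neurons, and Gli1 is above 6 in Bergmann glia and astrocytes alone.

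Gli1, the transcription factor that is itself a target gene, was the most restricted member. Bergmann glia gave 7.70, 8.43 and 8.62, and cerebellar astrocytes 6.43, 6.51 and 6.51. In the other 28 groups the mean was under the minimum of 6, and the probe set was at its lowest value on 78 arrays. The next group, unipolar brush neurons, gave 4.11, 5.57 and 4.88, and cortical astrocytes gave 3.17, 2.62, 2.60 and 4.42. Gli1 has 1 probe set, so no second reading was at hand. The fit shares 1 spread per gene over all groups, and groups at the lowest value narrow it. The SD of the Bergmann arrays was 0.49, so p-values for Gli1 can be too small.

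Bergmann glia exceeded cerebellar astrocytes in Gli1 by 3.40-fold without overlap (log2 difference 1.76, SE 0.18, adjusted p = 1e-13; 1.98 with no scaling and 1.20 after quantile normalization). It was the 1 member called of 6 tested in that comparison, where 11.3% of 4334 genes were called higher and 5.42% lower; without scaling these were 19.6% and 3.70%, and after quantile normalization 4.14% and 9.15%. Ptch1 differed by 0.36 (adjusted p = 0.39), Gli2 by 0.15 (0.74), Gli3 by 0.26 (0.52), Smo by 0.54 (0.48) and Hhip by -0.76 (0.14), all as log2 values. For Hhip quantile normalization gave -1.20, called lower, and for Gli3 the second probe set gave -1.01, also called lower. The astrocyte arrays carried all 5 Bergmann glia markers, with summed intensities of 113823 to 120776 against 145774 to 175643 in the Bergmann arrays and 28269 to 56714 in unbound cerebellum. The Bergmann arrays carried 5 of 5 mature oligodendrocyte markers, with summed intensities of 39282 to 44710 against 7590 to 9543 in the astrocyte arrays. The Bergmann values lay within the range of unbound cerebellum, 26497 to 50019. The part of either marker set in the Gli1 difference was not tested. Against unbound cerebellum, which ran from 2.84 through 2.92 to 3.19, Gli1 was at least 4.75-fold higher in Bergmann glia and at least 1.40-fold higher in cerebellar astrocytes.

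Gli2 and Gli3, which carry the signal into the nucleus, had the same 3 leading groups. Gli2 gave 10.73, 10.31, 10.48 and 10.10 in cortical astrocytes, 9.09, 9.15 and 9.09 in Bergmann glia, and 8.96, 8.95 and 8.95 in cerebellar astrocytes. Gli3 gave 10.75, 10.78, 10.81 and 10.58 in cortical astrocytes, 9.44, 9.47 and 9.43 in Bergmann glia, and 9.30, 9.07 and 9.20 in cerebellar astrocytes. None of these 3 groups overlapped with the next for Gli2, while for Gli3 cerebellar astrocytes overlapped with the Drd2+ neurons at 8.66, 9.14 and 8.57. In Purkinje, granule and Golgi neurons both genes were at the lowest value on every array.

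Against unbound cerebellum, which ran from 7.51 to 7.82 for Gli2 and from 6.50 to 6.68 for Gli3, Gli2 was 2.70-fold higher in Bergmann glia and 2.43-fold higher in cerebellar astrocytes, and Gli3 was 7.03-fold and 5.88-fold higher (adjusted p = 1.1e-06, 9.8e-06, 2.4e-18 and 2e-16). Against unbound cortex, Gli2 was 12.2-fold and Gli3 14.9-fold higher in cortical astrocytes. Layer 5a neurons were called higher for both, 2.21-fold and 3.68-fold, in arrays that carried the astrocyte markers named above; 60.7% of genes were called higher there. After quantile normalization the differences were -0.21 and 0.63 and not called, and neither were Gli2 with no scaling (0.63) or without the Pnoc+ line's unbound array (1.00), or Gli3 by its second probe set (0.99). In unipolar brush neurons, with their Bergmann glia markers, Gli2 was called 2.36-fold lower and Gli3 stood 0.64 higher on the log2 scale; with no scaling Gli2 was at -0.37, not called, and Gli3 at 1.51, called higher. Each gene was called lower than unbound RNA in 14 of 24 populations, where 32.4% of all tests over the 24 were lower.

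**Figure D4:**
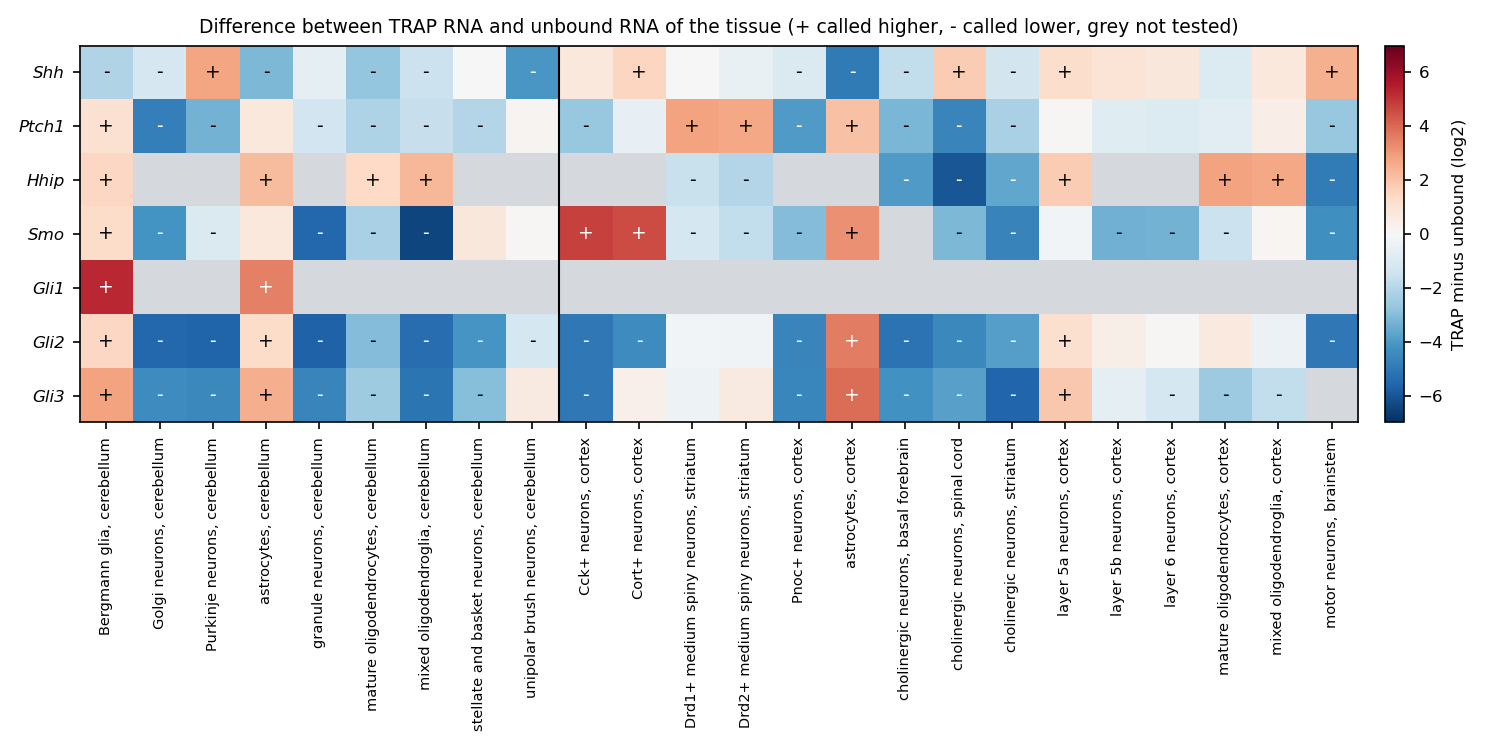
Difference between TRAP and unbound RNA for the 7 members (rows) in 24 populations (columns; the 9 cerebellar ones lie left of the black line). Colour gives the log2 difference from blue (lower in TRAP) to red (higher), + and - mark calls, and grey marks genes under the minimum of 6 on both sides. Bergmann glia have 6 higher calls, the most of any population, with Shh the 1 member lower.

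In all, 133 of the 168 pairs of a member and a population passed the minimum, and 30 were called higher and 70 lower, where 18.4% of all tests were called higher and 32.4% lower. Of the 51 cerebellar pairs tested, 13 were higher and 30 lower, where 12% of tests were higher and 45.9% lower; without scaling the shares over all genes were 20.9% and 34.2%, and after quantile normalization 26.6% and 25.3%. The median gene lay below 0 in each of the 9 cerebellar comparisons, from -1.96 in Golgi neurons to -0.50 in Bergmann glia (no scaling: -1.62 to 0.40; quantile: -0.23 to 0.12), so a lower call there is measured against a median that is lower too. Bergmann glia had 6 higher calls of 7 tested (19.6% of genes higher, 39.5% lower), cerebellar astrocytes 4 of 7 (16.4% and 48.6%), and Purkinje neurons 1 of 5, with the other 4 lower (14% and 49.2%). Golgi neurons had 5 of 5 lower (4.41% of genes higher, 70.4% lower), granule neurons 4 of 5 lower (5.33% and 38%), stellate and basket neurons 3 of 5 lower (9.27% and 38.4%) and unipolar brush neurons 2 of 5 lower (12.1% and 37.5%), each with no member higher. Mixed oligodendroglia and mature oligodendrocytes each had Hhip higher and 5 of 6 members lower (17.8% and 39.1%; 8.42% and 53.3%).

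Outside the cerebellum, cortical astrocytes and layer 5a neurons each had 4 members called higher, of 5 and 6 tested (33% of genes higher and 31.5% lower; 60.7% and 2.31%), and in the astrocytes Shh was called lower. Cort+ neurons had 2 higher and 1 lower (12.9% and 4.46%) and Cck+ neurons 1 higher and 3 lower (15.3% and 22.8%). Drd1+ neurons (29.8% and 8.2%) and Drd2+ neurons (16.8% and 13%) each had Ptch1 higher and Hhip and Smo lower. Brainstem motor neurons (9.43% and 32.3%) and spinal cord cholinergic neurons (5.38% and 53.4%) had Shh higher and every other tested member, 4 and 5, lower. The cholinergic neurons of the basal forebrain (8.01% and 41.4%) and striatum (23.2% and 30.9%) and the Pnoc+ neurons (2.92% and 58.2%) had all 5, 6 and 5 tested members lower. Cortical mature oligodendrocytes (15.7% and 32.8%) and mixed oligodendroglia (31.8% and 20.6%) had Hhip higher, with 2 and 1 members lower. Layer 5b (36.7% and 4.92%) and layer 6 neurons (30.8% and 4.53%) had none higher and 1 and 2 lower.

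Between the 2 astroglial populations and Purkinje neurons all 7 members were called, Shh lower and the other 6 higher, where 39.9% of 5816 genes were higher and 26.5% lower. Their folds were at least 2.58 for Gli1, 8.19 for Gli2, 9.97 for Gli3 and 2.63 for Hhip, and 3.99 for Smo. Between cerebellar astrocytes and mature oligodendrocytes, 5 of 6 members were higher in astrocytes (45.7% of 4234 genes higher and 18.2% lower): Ptch1 by 7.47-fold, Smo by at least 6.40-fold, Gli3 by at least 9.12-fold, Gli2 by at least 7.76-fold and Gli1 by at least 1.40-fold. Hhip, at 1.78-fold, was not called (adjusted p = 0.056), and was called after quantile normalization (1.19) and without mature replicate 1 (1.14) or 2 (1.00).

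Cortical and cerebellar astrocytes differed in 5 of the 6 members tested, 2 higher and 3 lower in cortex, where 17% of 5873 genes were called higher and 12.1% lower (quantile normalization: 12.1% and 16.1%). Gli2 was 2.73-fold and Gli3 2.91-fold higher in cortical astrocytes (adjusted p = 1.7e-05 and 8.6e-07). Ptch1 was 3.10-fold lower (adjusted p = 1.5e-06), Hhip at least 3.42-fold lower and Gli1 at least 1.40-fold lower, the last for a log2 difference of -3.28 (adjusted p = 1.6e-30), each without overlap between 4 and 3 arrays. Smo did not differ by the rule (log2 difference 0.57, adjusted p = 0.37). The tissues themselves differ in Ptch1, and its difference between TRAP and unbound RNA ran the other way, 2.04 in cortex and 0.73 in cerebellum. In the cortex, layer 5b and layer 6 neurons did not differ in the 2 members tested, Shh (log2 difference 0.20, adjusted p = 0.57) and Gli2 (0.33, adjusted p = 0.44). There 10.2% of 8706 genes were called higher and 5.16% lower (quantile normalization: 9.07% and 8.22%). Ptch1 and Gli3 also reached 6 in this comparison, but exceeded unbound cortex in neither population and so were not tested.

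Other genes of the pathway were described from a list of 49, of which 45 had a one-symbol probe set. The list holds 5 genes picked as astroglial (below). Their rise in astroglia is in part fixed by that choice, so totals over the list do not describe the pathway alone. Between the cerebellar astroglia and Purkinje neurons 18 of the 45 were tested, 12 were called higher in astroglia and 2 lower. The median log2 difference was 3.90 against 0.30 over all genes tested, where 39.9% of genes were called higher and 26.5% lower. The 5 astroglial genes made up 5 of the 12 higher calls, with a median of 7.80. Against unbound cerebellum 30 of the 45 were tested in each astroglial population, and more were lower than higher: 9 higher and 12 lower in Bergmann glia (median -0.20 against -0.50 over all genes; 19.6% of genes higher and 39.5% lower), and 10 higher and 13 lower in cerebellar astrocytes (median -0.57 against -0.93; 16.4% and 48.6%). The 5 astroglial genes gave 4 of the 9 higher calls in Bergmann glia and 5 of the 10 in cerebellar astrocytes. The 4 cilium genes tested were Ift172, Ift81, Ift88 and Kif3a, which carry cargo along the cilium. All 4 were called lower than unbound cerebellum in both astroglial populations. Their log2 differences ran from -3.84 to -1.82 in Bergmann glia and from -4.22 to -2.35 in astrocytes. Such calls were not particular to astroglia. In the cerebellum 4 of 4 cilium genes were also lower in both oligodendroglial populations. The same held for each neuron population except granule neurons (3 of 4) and Purkinje neurons (2 of 4). Gas1, a co-receptor that helps Ptch1 bind the ligand, had means of 13.22 in Bergmann glia, 13.37 in cerebellar astrocytes and 12.14 in cortical astrocytes against 7.36 in Purkinje neurons. The co-receptors Boc and Cdon were called lower than unbound cerebellum in Purkinje neurons, Bergmann glia and cerebellar astrocytes alike. Evc, a protein of the cilium base that works with Smo, was at 8.55 in Bergmann glia and 8.16 in cerebellar astrocytes, against 5.72 in cortical astrocytes and 2.77 in unbound cerebellum. Tulp3, which brings membrane proteins into the cilium, was at 12.17 and 11.25 in the 2 cerebellar astroglial populations and at 6.00 in Purkinje neurons. The ligands Ihh and Dhh had no group mean of at least 6. Disp1, which releases the ligand from the cells that make it, was at 2.10 in Purkinje neurons and at 6.67 in Bergmann glia. Of the 6 listed target genes, Ccnd1, Ccnd2, Mycn and Bcl2 were tested against unbound cerebellum. In Bergmann glia none was called higher and 2 were called lower, Ccnd2 (-3.37) and Mycn (-2.40), while Ccnd1 (-0.90) and Bcl2 (0.85) were under the 2-fold line. In cerebellar astrocytes 3 of the 4 were called lower, Ccnd1, Ccnd2 and Mycn, and Bcl2 stood at 0.85, not called.

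All 5 listed astroglial genes known to depend on Shh from Purkinje neurons were called higher in cerebellar astroglia than in Purkinje neurons: the glutamate receptor subunits Gria1 and Gria4, the glutamate transporter Slc1a3, the potassium channel Kcnj10 and the water channel Aqp4. In that comparison 39.9% of 5816 genes were called higher, and Slc1a3 and Aqp4 are also on the list of astrocyte markers used above, so the count only describes these genes. Gria1 was at 14.03 in Bergmann glia and 12.95 in cerebellar astrocytes, and the 2 differed by the rule (log2 difference 1.08, adjusted p = 0.0031). Cortical astrocytes had Gria1 at 7.22 and Gria4 at 2.16, against 12.95 and 13.17 in cerebellar astrocytes, and both were called lower there. Slc1a3, at 13.33 in cortical and 14.07 in cerebellar astrocytes, and Kcnj10, at 12.12 and 12.67, were not called between the tissues.

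The genes most like each member were ranked by Pearson's r over the 24 TRAP means among 12392 genes, as a description, since the groups share arrays processed together and the lowest value. Nefh, a neurofilament of large neurons, was most like Shh (r = 0.839), and Sox9, an astroglial transcription factor, most like Gli3 (r = 0.928). Fgd6 (0.939) and Cbs (0.918) led for Gli2, P2rx7 (0.950) and Phldb2 (0.920) for Hhip, and Unc119b (0.898) for Ptch1. For Gli1, Prelid2 reached 0.985, and Gli1 was above the minimum in 2 of the 24 groups. Smo had the weakest best match, Msx1 at 0.747. Among the members themselves r was 0.874 between Gli2 and Gli3, 0.654 between Ptch1 and Gli1, and -0.467 between Shh and Ptch1.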

How the data were processed

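RNA of 24 TRAP populations and 6 unbound tissues was analysed on microarrays. Per the labels' protocols the authors extracted it after TRAP and amplified it with an Affymetrix kit. The deposited values are linear intensities from GCRMA, per the submitters' processing notes (version not given in the sources used here), normalized within groups of replicates, and the series text advises a further scaling on the biotinylated controls. Values below 1 were set to 1 before taking log2. The 18 biotinylated control probe sets then gave 1 shift for each of the 30 groups, of -0.58 to 1.29, which made their mean level the same in every group. Before the shift their mean ran from 10.13 to 12.00 between groups (log2 of the deposited intensities).

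Tests used limma 3.58.1 in R 4.3.3: 1 fit over all arrays, with 30 group means, eBayes with trend, Benjamini-Hochberg adjustment. The fit was run on simulated normal noise for Purkinje TRAP against unbound RNA, scored on genes above 8 in both. It found 99% of added log2 changes of 1.5 and 100% of 3, with 1 false call among 5081 unchanged genes. The scored genes had no lowest values or values tied between arrays, so it cannot speak to p-values where these occur. P-values rest on 1 spread per gene, shared by all 30 groups, between replicate preparations that the series text calls independent. Groups in which a gene is at its lowest value add little or no spread to it. Gli1 was at its lowest value on 78 of 107 arrays, while its SD was 0.49 in Bergmann glia and 0.86 in cortical astrocytes. For such genes the p-values can be too small. The error of the shift between groups is not part of that spread. The genes named are the 7 members, the listed pathway genes and, for each member, the 5 genes with the highest r. The members and lists were chosen with earlier results of these data known. Alternatives covered scaling, the minimum, probe sets, the fit, unbound arrays, lines, a replicate block and leaving out arrays; the second probe set was added after seeing the data. Promoters came from RefSeq (GRCm38.p6); figures were drawn with matplotlib. The number of arrays limits the precision.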

Additional observations from a re-analysis of the deposited data

Results flagged for a closer look

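In groups of 4 to 10 arrays with a mean of at least 6, 4 member values stood apart from the rest of their group by Dixon's criterion at 95%. Chance meets it in about 1 of 20 groups. The number of member and group sets looked at is not given, so these 4 cannot be set against that rate. The groups concerned also pool arrays of different lines. Shh was 8.85 on the unbound cerebellum array of the Bergmann line DS152, replicate 1, where the next array was at 8.59. Gli3 was 6.50 on the unbound cerebellum array of the Purkinje line DR168, replicate 1, below the next at 6.65. Smo was 9.16 on the unbound striatum array of the Drd1+ line CP73, replicate 2, where the next was at 7.18, and 8.05 on the Purkinje array of line DR168, replicate 4, where the next was at 6.89.

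The difference between TRAP and unbound RNA was compared between cortex and cerebellum for 3 populations found in both (limma interaction term, given as cortex minus cerebellum on the log2 scale). With all 4 group means at or above 6, Ptch1 (1.32), Smo (2.49), Gli2 (2.33) and Gli3 (1.34) differed for astrocytes, where 61.2% of 11017 genes did, Ptch1 (1.45) for mature oligodendrocytes, where 42.4% of 10680 genes did, and Shh (2.24) and Ptch1 (2.07) for mixed oligodendroglia, where 53.3% of 10995 genes did. The other values past the threshold rest on group means under 6, and their size is not measured. For astrocytes the fitted values were -1.83 for Shh, -2.24 for Gli1 and -3.45 for Hhip, and with means under 6 set to 6 they were 0.46, -0.49 and -1.78, so that Shh has no settled direction. For mature oligodendrocytes the fitted values of 1.71 for Shh, 3.73 for Gli2 and 1.42 for Hhip became 1.63, 2.39 and 0.83. For mixed oligodendroglia 6.53 for Smo, 4.95 for Gli2 and 3.34 for Gli3 became 2.07, 1.28 and -0.20, so that Gli3 has no settled direction either; the cerebellar means of these 3 genes were 1.55, 2.34 and 1.55. In the Ptch1 and Smo cases for astrocytes the unbound RNA of the 2 tissues differs too.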

How the results depend on the processing

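The calls of members in TRAP against unbound RNA, 30 higher and 70 lower, came from 133 pairs tested. Averaging a gene's probe sets left 40 pairs above the minimum, with 15 and 14 calls, and 29 of the 34 calls among those pairs were made the same way; the second probe set (chosen after seeing the data) left 25, with 14 and 7 calls and 17 of 19; a minimum of 8 left 67, with 24 lower and 45 of 45. Of the other comparisons, Purkinje against other cerebellar neurons had 3 calls, 1 with the mean of all probe sets, 5 without the requirement of TRAP over unbound RNA and 0 by the second probe set; Bergmann glia against astrocytes had 1, and 2 under quantile normalization, without that requirement and by the second probe set; astroglia against Purkinje neurons had 7, and 4 by the second probe set. Cortical against cerebellar astrocytes had 5, and 3 with the mean of probe sets, a minimum of 8 or the second probe set; mixed against mature oligodendrocytes had 0, and 1 with no scaling, without the requirement and by the second probe set; unbound cerebellum against cortex had 2, and 1 with a minimum of 8 or the second probe set.

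Of 33 changes of sign in a member's log2 difference, 20 were of differences called under neither setting, such as Shh in granule neurons (-0.65, and 0.28 under quantile normalization) and in unbound cerebellum against cortex (0.46 and -0.46). The other 13 were called under at least 1 setting. Under quantile normalization they were -0.21 for Gli2, -1.12 for Ptch1 and -0.10 for Shh in layer 5a, 0.94 for Shh in Golgi neurons, 0.35 for Shh in Pnoc+ neurons and 0.51 for Smo in Purkinje neurons. With no scaling Shh in Drd1+ neurons was -1.25. The second probe set gave -1.01 for Gli3 in Bergmann glia against astrocytes, 1.10 for Gli3 in Drd1+ neurons and 1.89 for Smo in layer 5a, and the mean of probe sets gave -0.06 for Ptch1 in Bergmann glia, whose other 2 probe sets were at the lowest value on 87 arrays and on every array; that mean also took Ptch1 under the 2-fold line in granule neurons (-0.74), stellate and basket neurons (-0.96), mature oligodendrocytes of the cerebellum (-0.89) and between astrocytes of the tissues (-0.56). Against its own unbound arrays Gli2 in Drd1+ neurons was 1.11, and Ptch1 in cortical against cerebellar astrocytes was 1.32 as TRAP minus unbound RNA. The cause was not tested.

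Leaving out 95 arrays in turn (not the 12 of the medium spiny neurons and unbound striatum) gave 29 to 31 higher and 65 to 72 lower calls, 5 to 6 for astrocytes against oligodendrocytes, 0 to 1 for mixed against mature, 2 to 3 for the unbound tissues, and 3, 1, 7, 5 and 0 throughout for Purkinje neurons, Bergmann glia, astroglia, cortical astrocytes and layer 5b. Shh in Pnoc+ neurons, at -1, was not called without Pnoc+ replicate 3 (-0.63) or without any 1 of 3 unbound cortex arrays (-0.85 to -0.88). With the replicate number as a block the counts were 30 and 70 and none of 170 member calls changed; same-numbered TRAP and unbound arrays correlated from -0.252 to 0.558, so the numbers do not pair the arrays throughout.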
